A study of Mus musculus with 9 samples.

Results

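The RNA of E0771 cells carrying a scramble control hairpin (scram) was described on its own, gene by gene. E0771 is a cell line from a mouse mammary tumour of a C57BL/6 animal. The members were the 3 arrays labelled scram among the 9 arrays of the series, and all 22206 probe sets of these arrays were ranked. The scramble hairpin was delivered with a lentiviral pLKO.1 vector. The cells grew untreated in DMEM with 5.6 mM glucose, 4 mM glutamine and 10% foetal bovine serum. The remaining 6 arrays, which hold cells with hairpins against pyruvate carboxylase, entered no comparison. Nothing in the labels tells if separate cultures were used, so the p-values and SDs measure only the spread between these arrays, which may be technical.

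The mammary gland holds luminal epithelial cells, which line the ducts and make milk, and basal or myoepithelial cells, which contract around them. Mammary tumour cells can keep the keratins and junction proteins of these layers, or lose them and carry mesenchymal genes such as vimentin. Many steps of metabolism are coded by several isoenzyme genes, of which a tissue usually uses a subset, and a ligand acts on the cell that makes it only where that cell also carries the receptor.

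Clariom S arrays give 1 value per probe set on a log2 scale, and the scram values ran from 1.55 to 18.63. Olfactory receptor genes, which serve smell neurons, gave the signal that a probe set can show in cells with little use for its transcript. The 1091 olfactory receptor probe sets had medians of 2.74, 2.73 and 2.76 on arrays 1, 2 and 3, against medians of 5.00, 5.04 and 5.04 over all probe sets. Their 99th percentiles were 4.85, 4.90 and 4.85, and their 95th percentiles were 4.055, 4.025 and 4.17. A probe set was called on where its values exceeded the 99th percentile of the same array in the limma test at an adjusted p under 0.05. It was called at background where it lay at or below the 95th percentile on all 3 arrays, and intermediate otherwise.

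By this rule 10952 probe sets (49.3%) were on, 9220 (41.5%) were at background and 2034 (9.16%) were intermediate. Each count of list members given below is to be read beside these shares. The levels formed a low peak around the receptor values and a broad high peak, with a median level of 10.98 for probe sets that were on and 2.78 for those at background. Close to the limit, the lowest level called on was 5.06 and the highest level left intermediate was 5.41. Repeat arrays lay close together, with pairwise correlations across probe sets of 0.997 to 0.998 and a median SD of 0.15. Of the olfactory receptor probe sets themselves 8 were on. The limit for the on call was set from these same probe sets, so this count does not test the rule. Of 356 probe sets for vomeronasal and bitter taste receptors, which did not set the limit, 6 were on (1.69%).

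**Figure D1:**
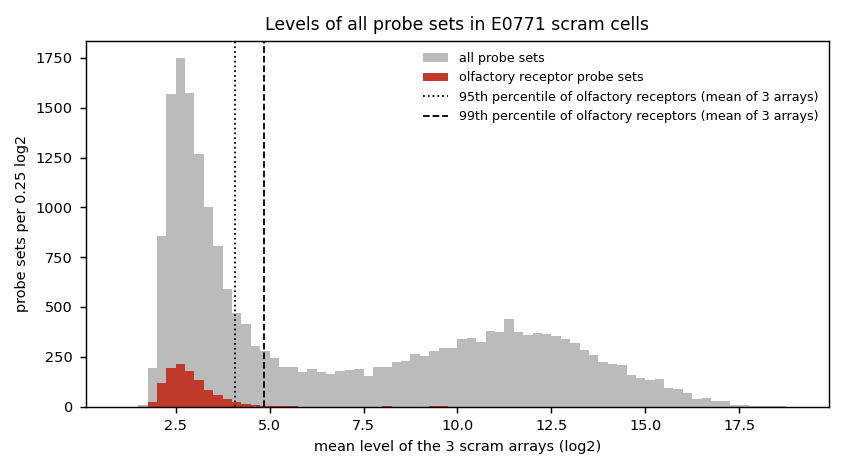
Histogram of the mean level of the 3 scram arrays (x axis, log2) for all 22206 probe sets (grey) and the 1091 olfactory receptor probe sets (red), with the number of probe sets per bin on the y axis. The dotted and dashed lines mark the mean 95th and 99th percentiles of the receptor probe sets, and 6848 probe sets lie at a level of 10 or more, far to the right of both.

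Probe sets differ in brightness for reasons other than the amount of RNA, so a level is read here against the receptor limit, and ranks describe signal. A low value shows only that the probe set gave no signal above the limit. Genes used by all cells show how the rule places clear cases, but they do not test calls near the limit. The lists given here were chosen with earlier results of these data known. All 30 measured proteasome subunits were on, from Psmb3 at 12.83 to Psmb2 at 15.63, and so were all 12 reference genes commonly used for qPCR, from Gusb at 12.12 to B2m at 17.54. In contrast, 0 of 28 genes of liver, muscle, neurons and germ cells were on, and 21 of them lay at background, with the highest of the list, Serpina1a, intermediate at 5.21.

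Among named genes Eef1a1, an elongation factor of translation, stood at 18.38 ± 0.04 (SD, n = 3) and rank 2, followed by Fth1, the ferritin heavy chain, at 17.98 and the metallothionein Mt1 at 17.67. Ribosomal proteins Rpl41, Rpl23, Rpl11 and Rps23 and the RNA-binding proteins Pabpc1, Hnrnpk and Hnrnpa2b1 were within the 20 highest. The set also held Ywhae, Stt3a, Actb, Eif5a, Vdac2 and Hspa5. Of the genes on lists of lineage, antigen presentation or metabolism, the 20 included Vim, B2m, Got2 and Gapdh. Transcripts of Eef1a1, ferritin and ribosomal proteins have near-identical copies elsewhere in the genome, so their signal may be shared with those copies.

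Of 25 luminal epithelial genes measured, 8 were on (32.0%, against 49.3% of all probe sets), 5 intermediate and 12 at background. The basal and myoepithelial list had 9 of 22 on (40.9%), 3 intermediate and 10 at background, and of 12 genes for milk proteins and secretion 0 were on, 3 were intermediate and 9 were at background. A pair of keratins that form filaments together in simple epithelia stood far apart. Krt8 was on, at 13.70, 13.78 and 13.75 on the 3 arrays. Its partner Krt18 was intermediate, at 4.16, 3.54 and 3.54, above the lower limit on array 1 only. The mesenchymal filament gene Vim measured 17.19, 17.12 and 17.15.

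Promoter windows of these 3 filament genes, from 250 bases before to 50 after the transcript start, are printed below from RefSeq on build GRCm38.p6 because Krt8 and Vim were on while the partner of Krt8 was not. Capitals mark TATAAA on either strand, the core letters of a TATA box, which 13.6% of all 32851 windows in the table hold.
Krt8 (chr15:102004293-102004592, minus strand): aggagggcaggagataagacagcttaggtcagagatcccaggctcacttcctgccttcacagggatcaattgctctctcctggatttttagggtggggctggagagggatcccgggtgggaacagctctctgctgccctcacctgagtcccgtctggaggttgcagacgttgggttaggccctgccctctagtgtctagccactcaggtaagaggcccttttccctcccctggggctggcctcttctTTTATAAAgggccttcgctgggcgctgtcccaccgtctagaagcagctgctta
Krt18 (chr15:102027966-102028265, plus strand): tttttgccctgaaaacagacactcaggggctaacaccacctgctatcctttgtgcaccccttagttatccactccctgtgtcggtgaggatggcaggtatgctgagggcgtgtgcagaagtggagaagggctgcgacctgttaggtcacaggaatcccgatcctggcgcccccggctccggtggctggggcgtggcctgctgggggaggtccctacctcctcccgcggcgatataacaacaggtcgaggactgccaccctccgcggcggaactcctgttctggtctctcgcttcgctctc
Vim (chr2:13574061-13574360, plus strand): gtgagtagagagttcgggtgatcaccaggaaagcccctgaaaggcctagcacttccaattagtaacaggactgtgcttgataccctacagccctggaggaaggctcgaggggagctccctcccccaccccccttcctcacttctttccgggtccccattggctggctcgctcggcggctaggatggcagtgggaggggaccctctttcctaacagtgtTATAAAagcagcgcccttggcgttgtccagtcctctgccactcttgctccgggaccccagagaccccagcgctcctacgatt
The letters occurred at 1 place in Krt8, where the matches on each strand overlap, at 1 place in Vim and at 0 places in Krt18. Only this exact run was searched. Of on genes outside the sensory receptor families that have a window, 6.74% held it. A relation between the letters and the levels was not tested. Krt8 and Krt18 neighbour each other on chromosome 15. Their windows held 6 and 17 CpG sites, with GC contents of 58.0% and 61.3%, and that of Vim held 11 CpG sites.

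Besides Krt8, the luminal genes that were on lay low. The adhesion protein Epcam measured 7.35, 7.41 and 7.72, and Foxa1, a transcription factor of luminal cells, measured 5.90, 6.82 and 6.03. The protease inhibitor Spint1, its protease partner St14, Krt7, Muc1 and the junction protein Tjp3 lay between 5.42 and 6.78. Cdh1, which codes for E-cadherin, was intermediate at 4.83, 4.68 and 5.17, with 2 arrays under the upper limit (mean difference 0.03 ± 0.12 SE, adjusted p = 0.81). The claudins Cldn3, Cldn4 and Cldn7, Krt19, the splicing regulator Esrp1 and the epithelial transcription factors Grhl2, Ovol2, Elf5 and Ehf were all at background. Under a strict limit, which leaves 0.2% of the receptor probe sets above it, Krt8 alone of this list stayed on.

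On the basal side, the laminin receptor chain Itga6 measured 14.33, 14.18 and 14.24. Smooth muscle actins were also on, with Actg2 at 11.59 ± 0.12 and Acta2 at 9.24 ± 0.16 (SD, n = 3). Krt17 stood at 8.02 and Itgb4, the partner of Itga6, at 7.65. Trp63, the master regulator of basal epithelium, and Krt5 were at background, at 2.95 and 2.54, and Krt14 was intermediate at 4.85. The caseins Csn1s1, Csn2 and Csn3 and the whey genes Wap and Lalba lay at background, between 2.52 and 3.86.

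The mesenchymal list had 14 of 21 members on (66.7%, against 49.3% of all probe sets), 2 intermediate and 5 at background. Its median level was 9.40, against 5.02 over all probe sets. Vim ranked 27 of 22206. The matrix protein Sparc (15.39), the hyaluronan receptor Cd44 (15.31), the receptor kinase Axl (14.90) and Tgfbi (14.65) were each on with SDs under 0.10. All 5 measured genes of this list from the Zeb, Twist and Snail families, transcription factors that repress epithelial genes, were on. Zeb1 measured 13.87, 13.78 and 13.66, Twist2 12.04, 11.75 and 11.66, Twist1 9.45, 9.77 and 9.53, Snai1 8.95, 9.33 and 9.22, and Snai2 8.62, 8.45 and 8.71. Other members were at background. Fibronectin (Fn1) measured 2.22, 2.34 and 2.36, and Cdh2, which codes for N-cadherin, measured 3.21, 3.24 and 3.18. Prrx1, Mmp3 and the collagen cross-linking enzyme Lox were at background as well.

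Of 17 fibroblast genes, 6 were on and 10 at background, and the split ran through the collagens. Chains of type VI collagen were on, Col6a1 at 14.29 and Col6a2 at 12.46, as were Col5a1 at 9.44 and Pdgfrb, a receptor of mesenchymal cells, at 11.38. The fibrillar chain Col1a1 was on at 7.32, 7.32 and 6.88, whereas its partner chain Col1a2 was at background at 3.23, 2.82 and 2.84. Col3a1, Col5a2, Dcn, Postn, Fap and Thy1 also lay at background. Among 14 endothelial genes Eng, a co-receptor for TGF-beta, was on at 13.86 and the others were not. Of 9 melanocyte and neural crest genes Mitf was on at 9.90, while its pigment targets Tyr, Dct, Pmel and Mlana were at background. The adipocyte list had 0 of 10 on, with Fabp4 intermediate at 5.09.

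Of 21 macrophage and myeloid markers 6 were on, 3 intermediate and 12 at background. Spi1, the transcription factor PU.1 of myeloid and B cells, measured 13.23, 13.07 and 13.12. The lysosomal protein Laptm5 measured 13.07, 13.16 and 13.14, and lysozyme (Lyz2) 9.87, 9.77 and 9.72. The other members on were the surface receptor Cd14 (6.79, 5.99 and 6.55), S100a8 (6.61) and Coro1a (5.26). Several defining surface markers were at background. Ptprc, which codes for CD45 on nearly all white cells, measured 3.40, 2.90 and 3.39, and the macrophage receptor Csf1r measured 3.28, 3.19 and 3.53. Adgre1 (F4/80), Itgam, Tyrobp, Fcer1g, Aif1, C1qa and Cx3cr1 were at background, while C1qb, Fcgr1 and Mrc1 were intermediate.

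A longer list of 49 measured haematopoietic signalling and adhesion genes was chosen after the levels had been seen. It had 17 on (34.7%, against 49.3% of all probe sets), 9 intermediate and 23 at background. Its on members included the tetraspanin Cd37 (13.83), the phosphatase Ptpn6 (13.28), the exchange factor Vav1 (11.49), the integrin chain Itgb2 (10.91), Hcls1 (10.87), the actin bundler Lcp1 (10.52) and Runx1 (10.31). Background members included Cd53 (2.63), Ikzf1 (3.59), Btk (2.60) and Cd33 (1.92). The alpha chains that pair with Itgb2 were not on: Itgam, Itgax and Itgad were at background and Itgal was intermediate at 4.35. Of 17 lymphocyte markers Cd4 was on at 6.80 and Prf1 at 5.52, neither of them at the strict limit, whereas Cd3e, Cd3g, Cd8a and Ms4a1 were at background. The part of other cells in these levels was not tested.

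**Figure D2:**
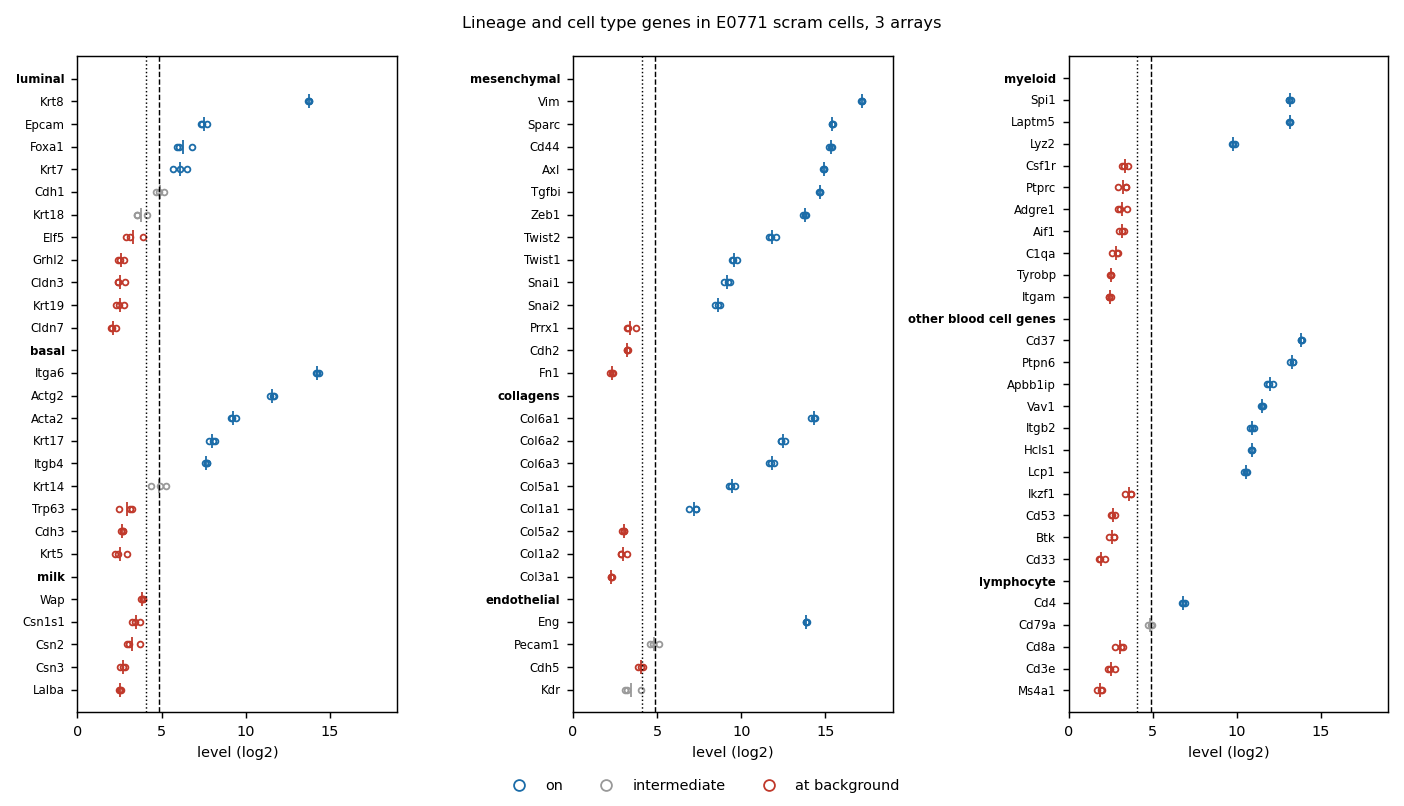
Levels (x axis, log2) of lineage genes in the 3 scram arrays (open circles, with a tick at their mean), sorted by level within each group and coloured by class. Dotted and dashed lines are the mean 95th and 99th percentiles of olfactory receptor probe sets. Krt8 lies apart from Krt18 and Krt19, Vim from Fn1 and Cdh2, and Spi1 from Ptprc and Csf1r.

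In metabolism, many reactions had isoenzymes that were on beside members of the same family at background. Lactate dehydrogenase was such a case. Ldha, the muscle-type subunit that favours lactate formation, measured 16.69, 16.67 and 16.59 and ranked 95 of 22206. The heart-type subunit Ldhb measured 3.37, 3.68 and 3.35, the testis subunit Ldhc 2.23, 1.90 and 2.27, and the D-lactate enzyme Ldhd 2.24, 2.16 and 2.33, all at background.

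RefSeq promoter windows of the 3 L-lactate dehydrogenase genes (GRCm38.p6, 250 bases before to 50 after the start) are shown because this family divided into a gene near the top of the ranking and genes at background. Capitals mark ACGTG on either strand, a form of the core letters bound by hypoxia-inducible factors. These exact letters occur in 19.6% of all windows.
Ldha (chr7:46845554-46845853, plus strand): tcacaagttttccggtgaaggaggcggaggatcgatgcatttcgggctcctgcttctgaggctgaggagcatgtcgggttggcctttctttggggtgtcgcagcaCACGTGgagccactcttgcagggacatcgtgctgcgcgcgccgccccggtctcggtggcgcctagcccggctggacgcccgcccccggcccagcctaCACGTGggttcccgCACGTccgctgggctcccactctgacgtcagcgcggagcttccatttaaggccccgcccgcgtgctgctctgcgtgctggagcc
Ldhb (chr6:142507908-142508207, minus strand): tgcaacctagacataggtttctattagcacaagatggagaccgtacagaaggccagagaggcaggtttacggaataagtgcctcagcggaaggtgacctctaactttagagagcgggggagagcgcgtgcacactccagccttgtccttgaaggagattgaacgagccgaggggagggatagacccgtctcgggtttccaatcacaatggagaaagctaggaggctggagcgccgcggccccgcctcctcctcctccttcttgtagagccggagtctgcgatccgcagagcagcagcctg
Ldhc (chr7:46861013-46861312, plus strand): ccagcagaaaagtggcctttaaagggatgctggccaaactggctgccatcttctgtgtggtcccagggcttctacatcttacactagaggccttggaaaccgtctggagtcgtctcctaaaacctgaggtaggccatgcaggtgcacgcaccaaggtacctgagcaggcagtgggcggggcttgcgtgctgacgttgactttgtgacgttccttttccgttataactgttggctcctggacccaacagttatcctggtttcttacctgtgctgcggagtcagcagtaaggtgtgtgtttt
The marked letters ACGTG stood at 3 places in the Ldha window and at 0 places in those of Ldhb and Ldhc. Only this exact run was searched. The related form GCGTG was not marked, and its letters occur in each of the windows shown. A match is a run of letters and not a measured binding site. The windows held 30, 17 and 9 CpG sites in the order Ldha, Ldhb and Ldhc. For Ldha and Ldhc, which have 2 windows each in the table, the window listed ahead of the other is shown.

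Around lactate, the exporter Slc16a3 (MCT4) stood at 16.16 ± 0.07, the transporter Slc16a1 (MCT1) at 15.57 ± 0.03 and their chaperone Bsg at 16.34 ± 0.05 (SD, n = 3). Slc16a7 (MCT2) and Slc16a8 (MCT3) were at background. The 16 genes of this list had 6 on and 10 at background, with 0 intermediate. Of 13 glucose transporters 6 were on (46.2%, against 49.3% of all probe sets). Slc2a1 (GLUT1) measured 15.91, 15.79 and 16.23 and Slc2a3 (GLUT3) 12.41, 12.29 and 12.21. The insulin-responsive Slc2a4 lay just above the limit at 5.55, and the liver transporter Slc2a2 was at background at 3.57.

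Glycolysis had 16 of 23 genes on and 7 at background, again with 0 intermediate. Hk1 (13.64) and Hk2 (11.27) were on and Hk3 and Hkdc1 at background. All 3 phosphofructokinases were on, Pfkp at 15.40, Pfkl at 13.74 and Pfkm at 11.17. Aldoa (15.87) was on without Aldoc, Pgk1 (15.30) without the testis gene Pgk2, Pgam1 (15.31) without the muscle gene Pgam2, and Gapdh (17.11) without the sperm gene Gapdhs. Pkm stood at 16.72 and the liver and red cell enzyme Pklr at 6.16. The enolases Eno3 and Eno2 were on at 11.00 and 5.81 and Eno4 was at background at 2.80. Eno1 was not among the measured genes of this list, so the main enolase cannot be told from these levels.

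At the branch point of pyruvate, 16 of 24 genes were on. The complex that makes acetyl-CoA was on throughout its somatic subunits, with Dld at 15.43, Pdhb at 14.88, Pdha1 at 13.18, Dlat at 12.96 and Pdhx at 10.29, and the testis subunit Pdha2 was at background. Of its inhibitory kinases Pdk1 (12.38), Pdk3 (9.47) and Pdk2 (6.75) were on, and Pdk4, the kinase induced by fasting in many tissues, was at background at 2.40, 2.33 and 2.07. Pcx, which codes for pyruvate carboxylase, the enzyme the study targets with its other hairpins, measured 9.18, 8.84 and 9.20 in scram and ranked 7905. The mitochondrial Pck2 measured 12.96, 12.57 and 12.89, whereas the cytosolic Pck1 of gluconeogenesis was at background at 2.96, 2.86 and 2.78. Malic enzymes Me1 (12.12) and Me2 (11.60) were on and Me3 at background. Fbp1, Fbp2 and the glucose-6-phosphatase genes of liver and islets, G6pc and G6pc2, were at background, while the widely used G6pc3 was on at 12.30.

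The TCA cycle had 19 of 22 genes on (86.4%). Idh3g (16.38), Cs (15.85) and Mdh2 (15.63) were the highest, Ogdhl was on at 10.55 beside Ogdh at 13.84, and Sucla2, the ATP-forming succinyl-CoA ligase subunit, was intermediate at 4.65 while its GTP-forming counterpart Suclg2 was on at 12.20. Among tissue isoforms of the respiratory chain, 13 of 23 were on (56.5%, against 49.3% of all probe sets). The general forms Cox4i1, Cox6a1, Cox6b1, Cox7a2 and Cox8a lay between 12.06 and 15.69, whereas Cox4i2, Cox6b2 and Cox8b were at background and the muscle forms Cox6a2 and Cox7a1 intermediate. The testis forms Cyct and Slc25a31 were at background beside Cycs at 16.07 and Slc25a5 at 16.22, but Cox7b2, also known from testis, was on at 9.60.

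Enzymes of glutamine, amino acid and one-carbon metabolism were on in 21 of 29 cases. The mitochondrial aspartate aminotransferase Got2 (17.13) and asparagine synthetase Asns (16.50) led, and the serine route was on from Phgdh (14.91) through Psat1 (15.69) and Psph (11.56) to Shmt2 (15.63). Mthfd2 stood at 13.69 and the branched-chain enzyme Bcat1 at 14.52. Of the urea cycle, Asl was on at 10.23 while Cps1, Otc and Arg1 were at background. The mitochondrial arginase Arg2 and the transsulfuration genes Cbs and Cth were at background. Of 28 amino acid transporters 16 were on (57.1%, against 49.3% of all probe sets), led by Slc38a2 (16.15), Slc38a1 (16.05), and Slc3a2 (15.89) with its partner Slc7a5 (15.46). Slc1a5, which carries glutamine, was on at 13.05, and the glutamate transporters Slc1a1, Slc1a2 and Slc1a3 were at background.

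For lipids, 20 of 32 genes were on. The desaturase Scd1 measured 15.48, 15.26 and 15.35, fatty acid synthase Fasn 13.53 and Acly, which makes cytosolic acetyl-CoA, 12.54. Acaca was on at 10.85 and Acacb at background, and of the carnitine transferases Cpt1a was on at 11.56 and Cpt1b intermediate at 4.13. The uptake receptor Cd36 was at background at 2.77. Of the pentose phosphate and phosphotransfer genes 10 of 19 were on (52.6%, against 49.3% of all probe sets). Pgd stood at 13.70, and the creatine kinases Ckmt1 and Ckmt2 were at background with Ckb and Ckm intermediate.

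Of the oxygen-sensing genes 11 of 15 were on. Hif1a measured 16.05, 15.92 and 16.03, and Epas1, which codes for the related subunit HIF-2 alpha, measured 1.94, 2.16 and 1.95. Hif3a was at background too. Their common partner Arnt was on at 12.09 and Arnt2 at background, and the prolyl hydroxylases Egln1 (14.35), Egln3 (13.55) and Egln2 (10.62) were all on. Of genes known as HIF targets, Adm (13.31), Ndrg1 (13.30) and Bnip3 (10.00) were on, and Car9 was intermediate at 5.10.

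**Figure D3:**
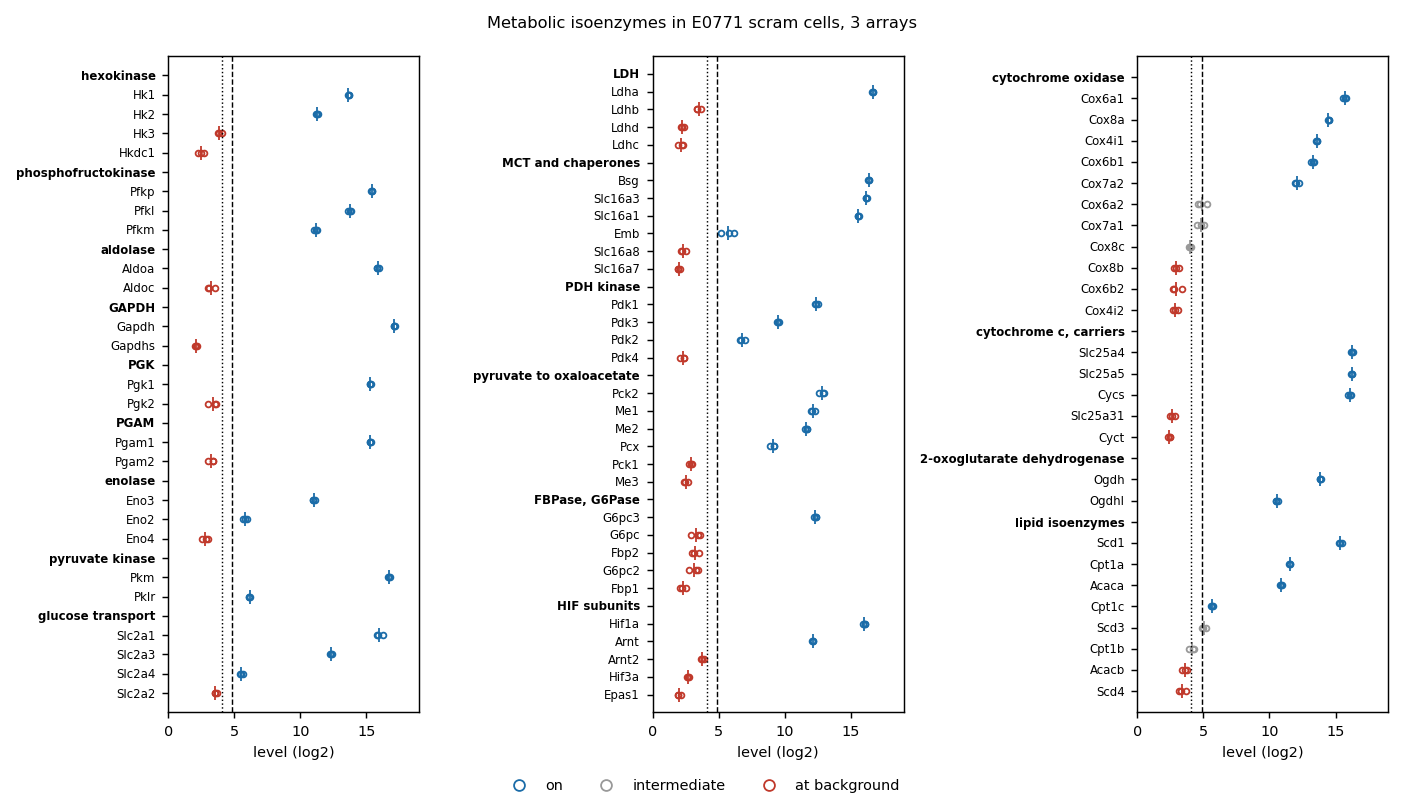
Levels (x axis, log2) of metabolic isoenzymes in the 3 scram arrays (open circles, tick at the mean), grouped by reaction and coloured by class, with the 95th and 99th percentile limits of olfactory receptors as dotted and dashed lines. Ldha, Hif1a and Pck2 lie far above the limits and Ldhb, Epas1 and Pck1 below them, with the 3 arrays of each gene close together.

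Hormone receptors that define breast cancer classes were at background. Esr1, the oestrogen receptor alpha, measured 3.09, 2.93 and 2.86, Esr2 2.41, 2.58 and 2.22, and the progesterone receptor Pgr 2.83, 2.39 and 2.77. The kinase gene Erbb2, which codes for HER2, was on at 9.83, 10.33 and 9.86. Of 26 nuclear receptors 14 were on (53.8%, against 49.3% of all probe sets) and 12 at background. They included Nr2f2 (12.21), the retinoic acid receptors Rarg (11.87) and Rara (11.11), the vitamin D receptor Vdr (9.33) and the glucocorticoid receptor Nr3c1 (9.24), whereas Rarb, Rxrg, Ppara, Pparg, Thrb and Ahr were at background. In the prolactin and growth hormone axis, Stat5a (10.76), Jak2 (10.24), Stat5b (8.69) and Ghr (7.15) were on, and Cish and Socs2, known STAT5 targets, were at background.

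Of 47 receptor tyrosine kinases 18 were on (38.3%, against 49.3% of all probe sets), 4 intermediate and 25 at background. The highest were Ryk (15.09), Axl (14.90), Epha2 (14.11), the collagen receptor Ddr2 (13.48), Met (13.30) and Fgfr1 (12.94). Egfr measured 8.03, 7.85 and 7.93 and Erbb3 6.15, 6.72 and 5.84, with Erbb4 at background. Fgfr2, Fgfr3 and Fgfr4 were at background beside Fgfr1. Of 40 ligands for this class 15 were on (37.5%), led by Pdgfa (12.71), Vegfa (12.69) and Kitl (12.61).

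Ligands and receptors were set side by side in 90 textbook pairs, listed after the levels had been seen, in which a gene can recur. In 20 pairs ligand and receptor were both on, in 14 the ligand was on with its receptor at background, in 23 the reverse held, in 18 both were at background and in 15 a partner was intermediate. Over all probe sets 49.3% were on and 41.5% at background. How many such pairs unrelated genes would give was not tested. Csf1, the growth factor of macrophages, measured 15.43, 15.45 and 15.45 and Il34 stood at 8.47, while their receptor Csf1r was at background. Kitl and Kit, Vegfa and Flt1, and Flt3l and Flt3 were divided the same way, and the VEGF receptor Kdr was intermediate at 4.06, 3.21 and 3.07. The reverse held for Met without Hgf, Axl without Gas6, Igf1r without Igf1 and Fgfr1 without Fgf1 or Fgf2. Pairs with both sides on included Ereg (9.71) and Hbegf (7.15) with Egfr, Pros1 (7.48) with Tyro3 and Mertk, and all 3 TGF-beta ligands with Tgfbr2.

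For TGF-beta, BMP, Notch and Wnt signalling, 17 of 29 receptors (58.6%) and 14 of 37 ligands (37.8%) were on. Tgfb1 measured 13.75, 14.02 and 13.77, and Tgfb3 and Tgfb2 stood at 9.67 and 8.94. Of their receptors Tgfbr1 stood at 9.39 and Tgfbr2 at 6.52. Wnt7b was on at 11.39, whereas Wnt5a, Wnt3a and Wnt1 were at background. Of the frizzled receptors Fzd2 and Fzd5 were on at 7.18 and 7.08, and the co-receptors Lrp6 (12.97) and Lrp5 (12.05) were on. Notch2 (10.76) and Notch1 (8.33) were on and Notch3 and Notch4 at background. Of 24 integrins 12 were on, with the beta chain Itgb1 at 16.18, and the collagen-binding Itga2 and Itga11 at background.

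Of 21 chemokine receptors 2 were on (9.52%) and 19 at background. The 2 on were the scavenging receptor Ackr3, at 9.64, 9.62 and 9.88, and Ccr7, which guides lymphocytes and dendritic cells to lymph nodes, at 8.04, 8.33 and 8.24. Cxcr4 measured 2.75, 2.94 and 3.18, and the other 18 were likewise at background. Of 36 chemokines 5 were on. The monocyte attractant Ccl2 measured 11.15, 11.01 and 10.86, Ccl25 8.67, 8.81 and 8.96, Ccl7 7.10, 6.91 and 6.66, Cxcl10 6.64, 6.15 and 5.75, and Cx3cl1 4.82, 5.46 and 5.54. Array 1 of Cx3cl1 lay under the limit, and this gene was on in 6 of the 11 alternatives run (adjusted p = 0.0418). The receptors Ccr2, Ccr9, Cxcr3 and Cx3cr1 of these ligands were at background.

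Of 42 cytokine receptors 25 were on (59.5%, against 49.3% of all probe sets). Ltbr (13.99), Tnfrsf1a (13.20), the shared chain Il6st (13.04), Il17rc (13.03) and Il6ra (11.49) led, and the receptors for both interferon types, Ifnar1 (9.99), Ifnar2 (11.52), Ifngr1 (9.87) and Ifngr2 (10.08), were on. Osmr was on at 8.24 and Lifr at background at 2.87. Of 40 cytokines 12 were on (30.0%), with Csf1, Mif (14.43) and Il34 the highest, and Tnf at 7.74. Ifnb1, Ifng, Il10 and Csf2 were at background, and Il6 and Il1b were intermediate at 4.14 and 5.06.

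The class I antigen presentation pathway was on in 16 of 17 genes. The light chain B2m stood at 17.54 and the heavy chains H2-K1 at 14.17 ± 0.06 and H2-D1 at 10.07 ± 0.04 (SD, n = 3). The peptide transporter genes Tap1 (12.22) and Tap2 (11.50), the loading factor Tapbp (13.42) and the immunoproteasome subunits Psmb8 (12.21), Psmb9 (9.50) and Psmb10 (8.89) were on. H2-T23, which codes for the non-classical Qa-1, was at background at 2.72. Heavy chain genes are close copies of each other, so signal may be shared among them.

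Class II presentation had 4 of 10 genes on, 2 intermediate and 4 at background. The peptide editor chains H2-DMb1 (12.38, 12.21 and 12.30), H2-DMa (9.00, 8.91 and 8.67) and H2-DMb2 (6.69), with H2-Oa (6.17), were on. The chains that present peptides to T cells, H2-Aa (3.56, 3.35 and 3.58), H2-Ab1 (3.82, 4.02 and 4.09) and H2-Eb1 (3.68, 3.08 and 3.11), were at background. H2-Ob, which pairs with H2-Oa, was at background as well, at 3.33, and the class II activator Ciita was intermediate at 4.37. Of the 4 on, 2 stayed on at the strict limit.

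Of 30 ligands for T cell and NK cell receptors 17 were on (56.7%, against 49.3% of all probe sets). Galectins Lgals1 (16.40), Lgals3 (14.98) and Lgals9 (13.58), the TIGIT ligand Pvr (13.76), the macrophage signal Cd47 (13.57), Icosl (12.45), the NKG2D ligand Ulbp1 (11.22) and Cd276 (10.77) were well above the limit. Cd274, which codes for PD-L1, lay low at 6.36, 6.16 and 6.09 (1.34 ± 0.09 above the limit, SE, adjusted p = 1.68e-05), was on in 10 of the 11 alternatives and was not on at the strict limit. Pdcd1lg2, Cd80, Cd86, Ido1 and the ectoenzymes Nt5e and Entpd1 were at background. Of 14 checkpoint receptors of lymphocytes Tnfrsf9 (4-1BB) was on at 9.83, 9.72 and 9.78, while its ligand Tnfsf9 was at background at 2.16, and Pdcd1 and Ctla4 were at background.

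Sensors of nucleic acids and microbes were on in 26 of 35 cases. The cytosolic DNA route was on with Cgas at 9.50, Sting1 at 13.37, Tbk1 at 13.67 and Irf3 at 10.54, and the RNA route with Ddx58 at 10.96 and Mavs at 13.34. The inflammasome genes Aim2 (11.26) and Casp1 (12.23) were on, without Nlrp3 (3.11). Tlr4 (11.08), Tlr3 (10.10), Tlr5 (9.20) and Tlr2 (7.38) were on, Tlr7 was intermediate and Tlr9 at background. Irf7, which amplifies the interferon response, was at background at 3.38. Of 33 interferon-stimulated genes 19 were on (57.6%, against 49.3% of all probe sets). Ifitm3 (15.35), Ifitm2 (15.30) and Bst2 (14.61) were high, whereas Isg15 lay at 5.41, Ifit1 was intermediate at 4.72, and Mx1, Mx2, Oas2 and Oas3 were at background.

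**Figure D4:**
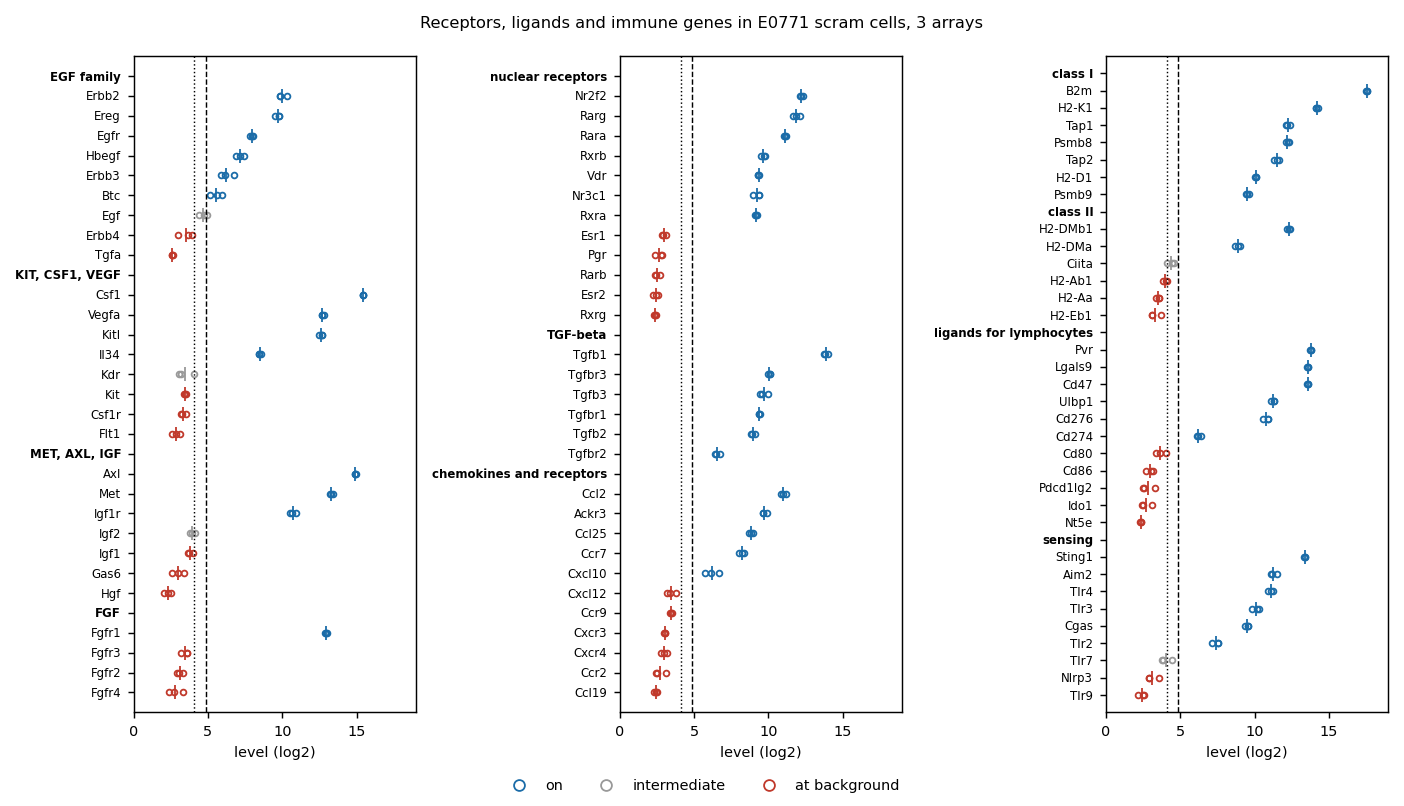
Levels (x axis, log2) of receptors, ligands and immune genes in the 3 scram arrays (open circles, tick at the mean), coloured by class, with the 95th and 99th percentile limits of olfactory receptors as dotted and dashed lines. Csf1 and Kitl are on with Csf1r and Kit at background, Esr1 and Pgr are at background, and class I genes are on while H2-Aa, H2-Ab1 and H2-Eb1 are not.

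Among growth control genes 29 of 34 were on. Myc measured 16.79, 16.58 and 16.60 and ranked 94, with Mycn and Mycl at background. The proliferation genes Pcna (16.63), Top2a (14.28) and Mki67 (13.80) and the cyclins Ccnd2 (15.08) and Ccnd3 (14.73) were on. The inhibitor gene Cdkn2a, which codes for p16 and p19ARF, measured 2.10, 1.93 and 1.93 and its neighbour Cdkn2b 2.28, 2.30 and 2.32, both at background. Mtap, which lies beside them on the chromosome, was on at 14.41, 14.60 and 14.60. Other inhibitors, Cdkn1b (14.99 on array 3), Cdkn1a (13.82), Cdkn2d (11.23) and Cdkn2c (11.18), were on. The Y-linked genes Uty, Kdm5d, Eif2s3y and Usp9y were at background, between 2.07 and 2.56, while Sry was intermediate at 5.10.

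**Figure D5:**
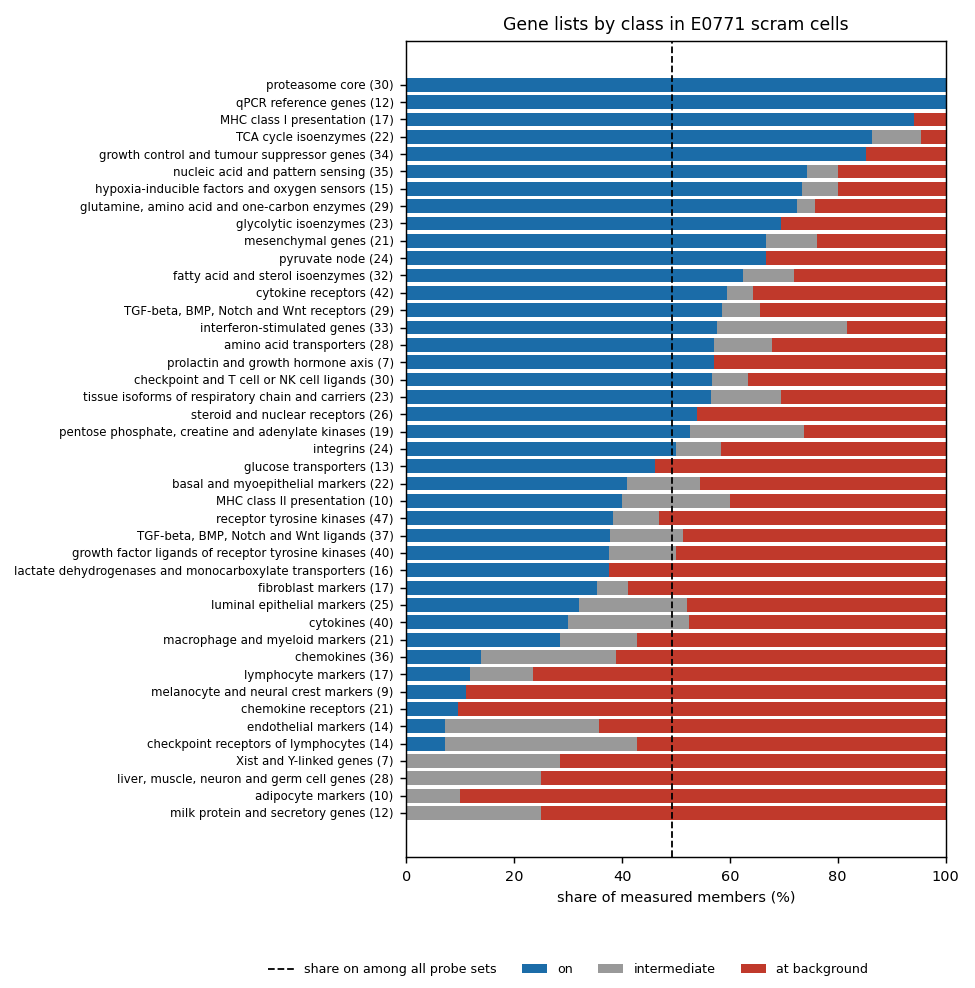
Share of the measured members of each gene list (x axis, percent, number measured in brackets) that were on (blue), intermediate (grey) or at background (red) in scram cells, ordered by the share on. The dashed line marks the 49.3% on among all probe sets, and the lists run from 100% for proteasome and reference genes to 0% for milk, adipocyte and other tissue genes.

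Over all 43 lists, 988 genes were measured, of which 484 were on, 103 intermediate and 401 at background. Among named genes that were on, the SD between the 3 arrays was largest for Lrguk (6.36, 5.01 and 6.18), followed by Aspa, Accs, F8, Cbarp, Il23a (7.81, 6.66 and 6.70), Rfx2, Cep41, Dok2 and AB124611. Their levels ran from 5.85 to 9.14, in the lower part of the on range, where 649 on probe sets lay under a level of 6.

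Promoter sequence, which the class rule did not use, was available for 82.1% of genes that were on outside the sensory receptor families. Of the on genes with a window 64.4% were CpG-rich (observed over expected ratio of at least 0.6 and GC content of at least 55%), and TATAAA occurred in 6.74%. A comparison with the other classes was void because windows were available for only 78.1% of genes at background and 74.7% of intermediate genes, under the 80% required, and none is drawn. By chromosome, outside the sensory receptors, 49.8% (chromosome 6) to 60.2% (chromosome 11) of named genes were on for the autosomes, 39.4% for the X and 2 of 32 for the Y.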

How the data were processed

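Total RNA of E0771 cells was labelled with biotin and hybridized to Clariom S mouse arrays. The deposited table holds log2 values made by the authors from the scanner files (base inferred from the range, background correction and normalization not given in the sources used here), with 22206 probe sets and 0 missing values. Gene names came from the GEO platform annotation (19572 probe sets with 1 symbol, 2634 without). The highest probe set stood for the 55 genes with several. Only the 3 scram arrays were described. Each value minus the 99th percentile of the 1091 olfactory receptor probe sets of its array was tested against 0 with limma 3.58.1 in R 4.3.3 (lmFit with an intercept, eBayes, two-sided, Benjamini-Hochberg over all probe sets), and the script was tested on simulated data. Genes named were the 20 highest and the 10 most variable on genes (predicted genes left out), list members, and families named as chosen later. Up to 3 olfactory receptors were to be named, and their neighbours were added after the values had been seen. Members and lists were chosen with earlier results of these data known. Alternatives changed the limit, the background family, the variance model, the scaling, the probe set chosen and the arrays. The number of arrays limits the precision, with a median SE of 0.09.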

Additional observations from a re-analysis of the deposited data

How the results depend on the processing

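The count of probe sets on stayed within 1.5 times of 10952 in all 11 alternatives, from 8960 at the strict limit (0.2% of olfactory receptor probe sets above it) to 11904 at the 95th. The strict limit alone set the number on under every one, 8960, and 10558 were on under every alternative but that limit. Without each array in turn the count was 10861 to 10933. Probe sets at background numbered 8147 at the 90th percentile and 10247 with vomeronasal and bitter taste receptors as background. Of the 9220, 0 were on under any alternative. The definitions largely fix this 0, because a probe set at or below the 95th percentile on all 3 arrays cannot exceed nearly any limit used. At an unadjusted p under 0.05, 10956 were on. At the strict limit, members on fell to 1 luminal, 4 basal, 3 myeloid and 0 lymphocyte genes, 8 ligands of receptor tyrosine kinases, 8 TGF-beta, BMP, Notch and Wnt ligands, 7 integrins, 2 chemokines, 4 cytokines, 2 class II genes, 9 interferon-stimulated genes and 3 glucose transporters. At the 95th percentile, 3 endothelial, 1 adipocyte, 2 liver, muscle, neuron or germ cell, 10 chemokine, 4 checkpoint receptor and 1 Y-linked gene were on. With vomeronasal receptors as background 1 lymphocyte gene was on, and with no test 1 Y-linked gene. Leaving out each array, the liver, muscle, neuron and germ cell list and the Y-linked list each ranged from 0 to 1, the call appearing without replicate 2. No level of a list gene moved by more than its SD or the rounding of the table under another scaling. The median and a left-out array could not have given such a move, since neither can shift a mean of 3 values by a full SD. The largest move in any setting was 0.45. No paired analysis was possible because only 1 group was described. Probe sets near the limit, at levels of about 5, are the least certain, and a probe set that hybridizes poorly would be at background whatever the RNA.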

Other observations

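Further gene families were chosen after their values had been seen, and 49.3% of all probe sets were on. Of 49 keratins 5 were on, namely Krt8, Krt80 (9.25), Krt17, Krt7 and Krt16 (5.83). Of 32 claudins, the sealing proteins of tight junctions, Cldn12 (9.54), Cldn9 (8.44) and Cldn34c1 (7.62) were on. Of 23 cadherins Cdh13, a membrane-anchored member without the usual cell-internal tail, stood at 13.44, and Cdh11 and Cdh18 were the others on, at 5.96 and 5.27. Of 15 connexins Gja1, which forms most gap junctions in the body, stood at 14.67 and Gjc1 at 6.82. Of 42 collagen chains 12 were on, including the basement membrane chains Col18a1 (11.68), Col4a2 (9.82) and Col4a1 (9.46). Of 26 serpin B genes, inhibitors of proteases inside cells, 7 were on, led by Serpinb9b (14.48) and Serpinb6a (12.24), with Serpinb9, an inhibitor of granzyme B, at 9.60. Of 33 Hox genes 9 were on, led by Hoxc6 (10.30), Hoxd10 (9.81) and Hoxc10 (8.78).

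Among the 8 olfactory receptor genes on, Olfr603, Olfr596 and Olfr600 had the highest levels, at 9.74, 9.45 and 8.03. They lie near each other on chromosome 7, and between them Olfr598 (5.21) was also on, Olfr599 (3.71) was intermediate, and Olfr597 (2.62) and Olfr601 (2.60) were at background. These neighbours are named after their values were seen.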
